A study of Mus musculus with 6 samples.

Results

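The smooth muscle contractile genes of the embryonic cardiac outflow tract (OFT) were examined by bulk RNA-Seq of mouse embryos at E13.5, in 6 libraries. The genes were chosen by name, 8 for contractile or cytoskeletal proteins of smooth muscle (*Acta2*, *Myl9*, *Myh11*, *Cnn1*, *Tagln*, *Smtn*, *Mylk* and *Lmod1*) and 2 for the transcription factors that drive them (*Myocd* and *Srf*). All 10 were among the 28777 genes of the count table and among the 28157 with more than 5 reads over all libraries, which were tested. Of the libraries, 3 were labelled *Notch1*+/-; *Nos3*-/- (mutant) and 3 wildtype. Both alleles are germline knockouts carried in every cell, *Nos3* is the endothelial nitric oxide synthase, the mice were kept on a C57/BL6J background, and the controls were littermates with neither allele. Each library came from 3 OFTs that were cut off below the conal cushions and pooled, so the spread between libraries is a spread between pools. No treatment was given to either group. The whole tissue was sequenced, and fewer cells of a type and less RNA per cell cannot be told apart in such libraries.

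Depth lay between 34729103 and 44387490 counts per library. *Notch1* was higher under the mutant label (155, 161 and 139 CPM, against 74.3, 88.2 and 83.6 CPM under the wildtype label), which goes against the genotype of that label, whereas *Nos3* was lower (22.1, 22.0 and 20.4 CPM against 31.8, 47.2 and 48.1 CPM). *Notch1* was called (log2 fold change 0.89, standard error 0.10, edgeR adjusted p = 0.0313), and *Nos3* was not (−0.98, standard error 0.15, edgeR adjusted p = 0.128). The groups are therefore named by their labels, and every direction below is that of the labels. *Notch1* lost its call when any single library other than wildtype replicate 1 was left out (0.84 to 0.94, edgeR adjusted p from 0.0917 to 0.339). CPM are counts scaled to a common library size by edgeR's TMM method. Fold changes compare the libraries labelled mutant with those labelled wildtype, and a gene was called where its Benjamini-Hochberg adjusted p over the whole table, from the quasi-likelihood test of edgeR, was no more than 0.05. Wildtype replicates 2 and 3 carry opposite library numbers in 2 fields of their labels, and they are numbered here by their titles.

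Smooth muscle contracts when myosin, made of the heavy chain Myh11 and light chains such as Myl9, pulls on filaments of the actin Acta2. Calcium and calmodulin switch on the kinase Mylk, which phosphorylates the light chain, and a phosphatase reverses it. Most of these genes are switched on by Srf, which binds CArG boxes in their promoters and introns, together with its cofactor Myocd. In the outflow tract, smooth muscle forms in the wall of the great arteries, and several of the genes, among them *Acta2*, *Tagln*, *Cnn1* and *Myocd*, are also expressed in embryonic heart muscle.

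Promoter windows from 250 bases before to 50 bases after the start of the gene (RefSeq, GRCm38.p6) were at hand for 7 of the 10 genes, *Acta2*, *Myl9*, *Cnn1*, *Srf*, *Smtn*, *Mylk* and *Lmod1*. Windows of *Tagln*, *Myh11* and *Myocd* were not used here. Both strands were searched for the CArG box, a pair of C bases and a pair of G bases with a run of only A and T between them. An exact box was found in 2 of the 7 windows (*Srf* and *Myl9*), against 535 of 32851 promoters in all (1.63%). A box with 1 changed base in its inner run was found in *Acta2* and *Myl9*, against 2792 promoters (8.5%). The stretches that hold these boxes are shown because CArG boxes are the kind of sequence that Srf binds. Each is written 5′ to 3′ on the strand of the gene, with the boxes in capitals.
Acta2 (chr19:34255383-34255472, minus strand): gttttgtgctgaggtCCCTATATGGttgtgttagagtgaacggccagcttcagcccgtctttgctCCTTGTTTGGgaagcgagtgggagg
Myl9 (chr2:156775288-156775389, plus strand): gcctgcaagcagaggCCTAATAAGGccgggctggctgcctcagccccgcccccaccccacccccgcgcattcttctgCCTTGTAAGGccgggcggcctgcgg
Srf (chr17:46556200-46556259, minus strand): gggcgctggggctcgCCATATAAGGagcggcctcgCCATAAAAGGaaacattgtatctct
Both boxes of *Srf* are exact and begin 82 and 62 bases before its start. In *Myl9* the exact box begins 161 bases before the start and the box with a changed base 99 bases before it. The boxes of *Acta2*, each with 1 changed base, begin 84 and 34 bases before the RefSeq start. They lie within the GENCODE span of the gene given below (chr19:34241090-34255590), which starts further upstream. A match is a description of the letters and not evidence of binding, and no match says only that these letters are not in the window.

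The 10 genes spanned more than 3 orders of size in level. Per kilobase of merged exon, *Myl9* had a mean of 829 CPM over the 6 libraries (652 to 1084) and *Acta2* 593 CPM (480 to 741). The ranges of these 2 genes overlapped, and both stood apart from all others. *Cnn1*, which binds actin and restrains the myosin motor, followed with 111 CPM per kilobase (93.6 to 134), and *Srf* with 40.7 (36.1 to 49.2). *Smtn*, an actin-binding protein of contractile cells, had 13.97 CPM per kilobase (11.8 to 16.1) and *Myocd* 10.6 (8.76 to 13.4), and their ranges overlapped. The last 4 were *Mylk* with 2.46 (1.84 to 3.15), the actin filament nucleator *Lmod1* with 1.33 (0.593 to 2.27), *Tagln* with 1.29 (1.04 to 1.53) and *Myh11* with 0.391 (0.222 to 0.678). In that order *Mylk* overlapped with *Lmod1*, and *Lmod1* with *Tagln*, while *Myh11* lay below the lowest library of *Tagln*. When the longest transcript replaced the merged exons as the length, *Lmod1* and *Tagln* changed places and the other ranks were kept.

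**Figure D1:**
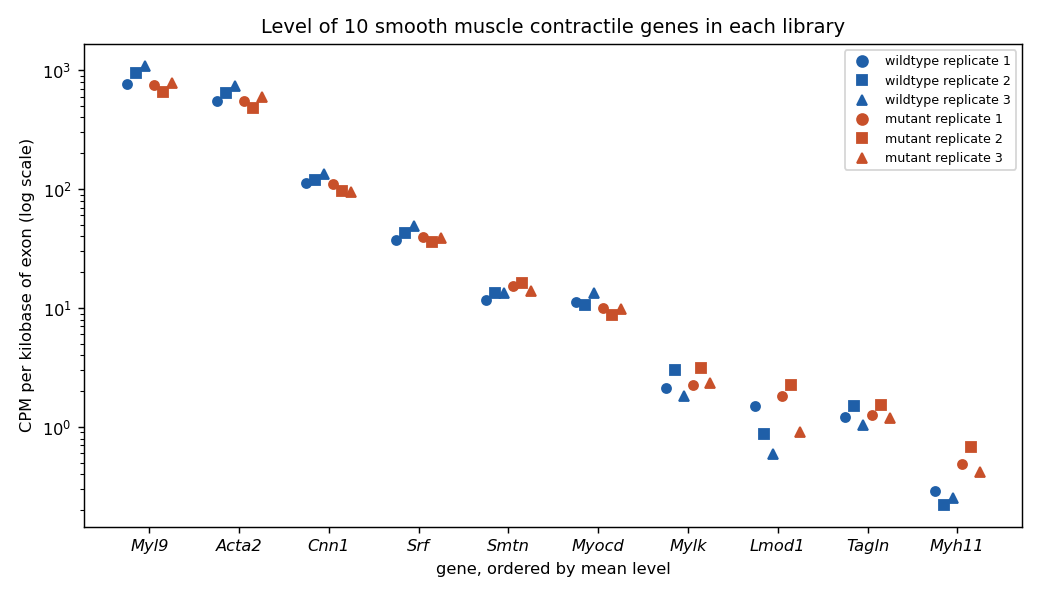
Level of each of the 10 genes in the 6 libraries, as CPM per kilobase of merged exon on a log axis, with wildtype libraries in blue, mutant libraries in orange and the marker shape giving the replicate. *Myl9* and *Acta2* lie above 480 in every library, and *Myh11* below 0.678 in every library.

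The actin Acta2 and the actin-binding Tagln (transgelin), often used side by side as markers of smooth muscle, stood far apart in these tables. The level of *Acta2* lay at percentile 99.8 of all genes tested and that of *Tagln* at 48.5, and *Tagln* had between 67 and 123 counts per library. Of the 1988 exon bases of *Tagln*, 1349 (67.9%) also lie in exons of genes on the opposite strand. The antisense gene Gm48529 covers 1241 of them and had 4 to 65 counts per library, and *Pcsk7* covers 108. The libraries were stranded, but whether the counting used the strand, and how reads on overlapping genes were treated, is not given in the sources used here, so the value of *Tagln* is uncertain. Exons of *Smtn* overlap with opposite-strand genes over 16.3% of their length and those of *Mylk* over 6.9%. For the other 7 genes the overlap was 0 bases.

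None of the 10 genes was called between the labels (0 of 10, where 0.0213% of all genes tested were called, 6 of 28157). By sign, 5 were higher and 5 lower under the mutant label, with log2 fold changes from −0.35 (*Myl9*) to 1.04 (*Myh11*). Their median was −0.047, against 0.011 over all genes tested and −0.03 over those averaging 1 CPM or more. An unadjusted p under 0.05 was found for *Myh11* and *Smtn* among the higher and for *Cnn1*, *Myocd* and *Myl9* among the lower, 5 of 10, where 16.1% of all genes had one (8.23% higher and 7.83% lower). Groups that did not overlap were found for *Myh11* and *Smtn*, both higher, and *Cnn1* and *Myocd*, both lower, 4 of 10, where 19.6% of all genes had such groups (10.7% higher and 8.94% lower). Both shares were larger among the 16655 genes averaging 1 CPM or more, as the 10 genes do. Of these, 1693 were higher and 1978 lower at an unadjusted p under 0.05, and 1792 were higher and 2128 lower without overlap. With 3 libraries against 3, the two-sided exact permutation test of a single gene cannot give a p under 0.1, which these 4 genes reached.

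**Figure D2:**
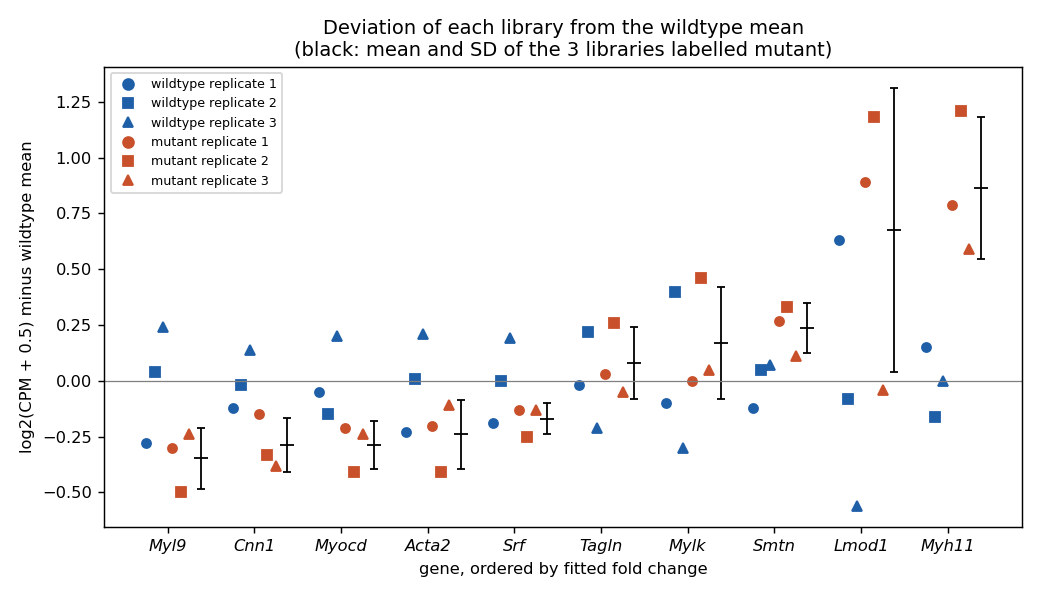
Deviation of each library from the mean of the 3 wildtype libraries, in log2(CPM + 0.5), for the 10 genes ordered by fitted fold change, with wildtype libraries in blue, mutant libraries in orange and black bars for the mean and SD of the 3 mutant libraries. The genes run from *Myl9* (fitted log2 fold change −0.35) to *Myh11* (1.04), and the mutant and wildtype libraries do not overlap for *Cnn1*, *Myocd*, *Smtn* and *Myh11*.

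The motor itself was examined first. *Myh11* (ENSMUSG00000018830, chr16:14194535-14291372, minus strand, mm10), the smooth muscle myosin heavy chain, had 2.20, 1.69 and 1.94 CPM in wildtype replicates 1, 2 and 3, and 3.70, 5.15 and 3.16 CPM in mutant replicates 1, 2 and 3. These values rest on 63 to 98 counts per wildtype library and 119 to 193 per mutant library. All 3 mutant libraries lay above all 3 wildtype libraries, and mutant replicate 2 was the highest. The means were 1.94 ± 0.259 CPM (SD, n = 3) and 4.001 ± 1.03 CPM (SD, n = 3), 2.05-fold higher under the mutant label. The log2 fold change was 1.04 with a standard error of 0.24, and *Myh11* was not called (edgeR adjusted p = 0.181, two-sided exact permutation test p = 0.1). The direction was kept over the 16 other fits set for these genes, with 0.68 to 1.18 on the log2 scale, but the call was not, with adjusted p from 0.0118 to 0.849. *Myh11* was called by DESeq2's Wald test (adjusted p = 0.0137), with a replicate block on the title numbers (1.02, edgeR adjusted p = 0.0118) and without wildtype replicate 1 (1.14, edgeR adjusted p = 0.0314). These fits called many more of all genes, 2.66%, 5.6% and 9.45% in the same order. When the block followed the numbers of the other label field *Myh11* was not called (edgeR adjusted p = 0.0927), and 0.295% of all genes were.

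The regulatory light chain went the other way in level and in sign. *Myl9* (ENSMUSG00000067818, chr2:156775420-156781658, plus strand) had 884, 1099 and 1260 CPM in the wildtype libraries and 870, 757 and 907 CPM in the mutant libraries. Wildtype replicate 1 lay among the mutant libraries, so the groups overlapped. With means of 1081 ± 189 CPM (SD, n = 3) and 845 ± 78.1 CPM (SD, n = 3), the log2 fold change was −0.35 (standard error 0.14, edgeR adjusted p = 0.267, two-sided exact permutation test p = 0.2). *Myl9* was called without wildtype replicate 1, the library within the mutant range (−0.48, edgeR adjusted p = 0.0264). The kinase that acts on this light chain, *Mylk* (ENSMUSG00000022836, chr16:34745210-35002420, plus strand), had 23.8, 34.0 and 20.7 CPM in the wildtype and 25.5, 35.5 and 26.5 CPM in the mutant libraries. Replicate 2 was the highest in each group and the groups overlapped. Its log2 fold change was 0.15 (standard error 0.18, edgeR adjusted p = 0.723), but −0.01 without mutant replicate 2 and −0.09 with offsets for gene length and GC content, so no direction can be given.

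*Acta2* (ENSMUSG00000035783, chr19:34241090-34255590, minus strand), the smooth muscle actin, had 1201, 1417 and 1628 CPM in the wildtype libraries and 1219, 1054 and 1297 CPM in the mutant libraries. Wildtype replicate 1 was below 2 of the mutant libraries, and the groups overlapped. The means were 1415 ± 213 CPM (SD, n = 3) and 1190 ± 124 CPM (SD, n = 3), a log2 fold change of −0.25 (standard error 0.14, edgeR adjusted p = 0.384). With the mean of the myocardial markers as a covariate it was 0.03. *Lmod1* (ENSMUSG00000048096, chr1:135324807-135368065, plus strand), which nucleates actin filaments, was the most variable of the 10. Its 5.98, 3.47 and 2.34 CPM in the wildtype and 7.25, 8.96 and 3.55 CPM in the mutant libraries gave coefficients of variation of 47.4% and 42.0%. Mutant replicate 3 lay within the wildtype range. The log2 fold change of 0.73 (standard error 0.37, edgeR adjusted p = 0.348) was −0.29 with the myocardial covariate. With the replicate block on the title numbers *Lmod1* was called (0.75, edgeR adjusted p = 0.0328), which the block on the other numbers did not do.

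The actin-binding regulators differed among themselves. *Cnn1* (ENSMUSG00000001349, chr9:22099216-22109630, plus strand), calponin, had 307, 328 and 367 CPM in the wildtype and 301, 265 and 256 CPM in the mutant libraries. Every mutant library lay below every wildtype library, the closest pair being mutant replicate 1 and wildtype replicate 1. Its means of 334 ± 30.4 CPM (SD, n = 3) and 274 ± 23.7 CPM (SD, n = 3) correspond to a log2 fold change of −0.29 (standard error 0.11, edgeR adjusted p = 0.26). *Smtn* (ENSMUSG00000020439, chr11:3517523-3540612, minus strand), smoothelin, had 51.6, 58.1 and 58.8 CPM in the wildtype and 67.6, 70.6 and 60.4 CPM in the mutant libraries. Every mutant library was above every wildtype library, mutant replicate 3 by little. The log2 fold change was 0.24 (standard error 0.10, edgeR adjusted p = 0.291), but −0.04 with offsets for gene length and GC content, which moved the median of genes averaging 1 CPM or more to −0.13. *Tagln* (ENSMUSG00000032085, chr9:45929619-45936058, minus strand) had 2.43, 2.96 and 2.06 CPM in the wildtype and 2.52, 3.04 and 2.36 CPM in the mutant libraries. These groups were interleaved, and the log2 fold change of 0.08 (standard error 0.22, edgeR adjusted p = 0.887) turned to −0.03 without wildtype replicate 3 or without mutant replicate 2.

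Both transcription factors were lower by sign under the mutant label. *Myocd* (ENSMUSG00000020542, chr11:65176561-65269989, minus strand), the cofactor restricted to smooth and cardiac muscle, had 72.3, 67.6 and 85.8 CPM in the wildtype and 64.6, 56.3 and 63.5 CPM in the mutant libraries. The groups did not overlap, with 64.6 CPM as the highest mutant and 67.6 CPM as the lowest wildtype value. Its means were 75.2 ± 9.48 CPM (SD, n = 3) and 61.5 ± 4.50 CPM (SD, n = 3), a log2 fold change of −0.29 (standard error 0.11, edgeR adjusted p = 0.26). It was −0.10 with the myocardial covariate. *Srf* (ENSMUSG00000015605, chr17:46548329-46556175, minus strand), which is expressed in most cells, had 109, 124 and 142 CPM in the wildtype and 114, 104 and 113 CPM in the mutant libraries. Wildtype replicate 1 lay within the mutant range. The log2 fold change was −0.18 (standard error 0.11, edgeR adjusted p = 0.451), and 0.01 with the myocardial covariate.

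The fit that combined the replicate block on the title numbers with offsets for gene length and GC content differed most from the rest. It called 5 of the 10 genes, *Myh11* higher (0.81, edgeR adjusted p = 0.0268) and *Cnn1* (−0.37), *Myocd* (−0.45), *Srf* (−0.44) and *Myl9* (−0.40) lower, with edgeR adjusted p between 0.00413 and 0.0187 for the lower ones. In that fit 10.9% of all genes tested were called, and the median of genes averaging 1 CPM or more was −0.13. Over the 16 other fits, *Myh11*, *Cnn1*, *Myocd* and *Myl9* kept their sign in all 16, and *Acta2*, *Srf* and *Lmod1* in 15. *Smtn* kept it in 14, *Tagln* in 13 and *Mylk* in 12.

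**Figure D3:**
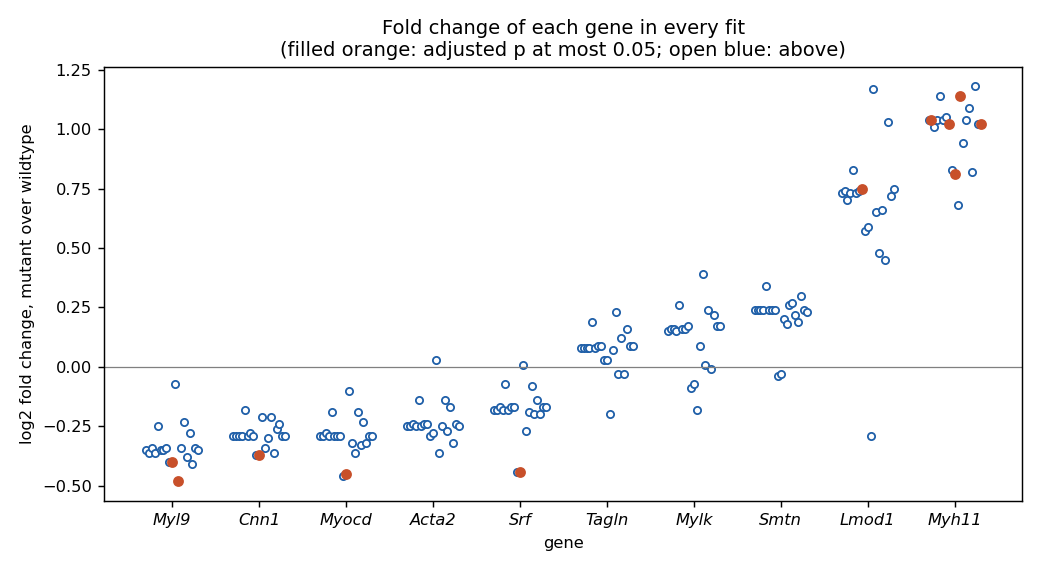
Log2 fold change (mutant over wildtype label) of the 10 genes in every fit, the fit reported above, 16 alternatives to it and 2 more added after the data were seen, with filled orange points for an adjusted p of at most 0.05. *Myh11* lies between 0.68 and 1.18 in the fit reported and the 16 alternatives, and *Acta2*, *Srf*, *Tagln*, *Mylk*, *Smtn* and *Lmod1* have points on both sides of 0.

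Markers of other cell types moved between the libraries too. The 14 myocardial markers summed to between 17388.5 and 23092 CPM in the mutant and to between 23852 and 33294 CPM in the wildtype libraries, ranges that did not overlap, and all 14 were lower by sign (median log2 fold change −0.51, 0 called). The mean of their centred log2 levels was 0.09 in mutant replicate 3 and 0.02 in wildtype replicate 1, so by this measure the groups overlapped. *Pln*, which restrains the calcium pump of heart muscle, had means of 86.3 CPM against 131 CPM (log2 fold change −0.60, edgeR adjusted p = 0.153). The 10 mural markers, of the cells around vessels, summed to between 2327 and 5182 CPM in the mutant and between 1552 and 3220 CPM in the wildtype libraries, which overlapped, and 7 of 10 were higher by sign (median 0.37, 0 called). Among them the receptor *Pdgfrb* had 128 CPM against 89.0 CPM (0.53, edgeR adjusted p = 0.230) and *Notch3* 80.4 CPM against 51.7 CPM (0.63, edgeR adjusted p = 0.212). The more abundant *Mcam* hardly differed, with 460 CPM against 474 CPM (−0.04, edgeR adjusted p = 0.872). A sum is weighted to its most abundant genes, so these sums do not measure the share of mural cells. The mean of the centred log2 levels, which weighs the 10 markers alike, ran from −0.45 to 0.11 in the wildtype libraries. In the mutant libraries it ran from −0.02 to 0.36. Mesenchymal markers were higher by sign in 6 of 6 (median 0.59, 0 called). The calls depended on the fit. DESeq2's Wald test (2.66% of all genes called) called 7 of the 14 myocardial markers lower, and 1 mural and 1 mesenchymal marker higher. With the replicate block on the title numbers (5.6%) 11, 4 and 5 were called in the same order. Without wildtype replicate 1 (9.45%) it was 9, 4 and 6, and with the block on the other label field (0.295%) 0, 0 and 1.

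The 10 genes differed in how they moved with these markers. Wildtype replicate 3 had the highest sum of myocardial and the lowest sum of mural markers, and mutant replicate 2 the lowest and the highest. In wildtype replicate 3 lay the highest level of *Acta2*, *Myl9*, *Srf*, *Myocd* and *Cnn1* and the lowest of *Lmod1*, *Mylk* and *Tagln*. In mutant replicate 2 lay the lowest level of *Acta2*, *Myl9*, *Srf* and *Myocd* and the highest of *Lmod1*, *Mylk*, *Tagln*, *Smtn* and *Myh11*. *Cnn1* was lowest in mutant replicate 3, *Smtn* in wildtype replicate 1 and *Myh11* in wildtype replicate 2. Over the 6 libraries the Pearson r with the mural mean was −0.98 for *Acta2* and 0.97 for *Lmod1*. It was only 0.46 for *Mylk*, 0.51 for *Smtn* and 0.55 for *Tagln*. *Acta2* and *Lmod1* also had r of 0.92 and −0.95 with the endothelial mean, so their course was not particular to the myocardial and mural lists. With the mean of the myocardial markers as a covariate, 4 genes had a positive and 6 a negative log2 fold change and none was called, with *Myh11* at 0.68 (edgeR adjusted p = 0.849), *Cnn1* at −0.21 and *Myl9* at −0.07. The marker mean itself differed between the labels, so this fit divides 1 difference between a pair of correlated terms. Beyond this fit, the part of these cell types in the values of the 10 genes was not tested.

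**Figure D4:**
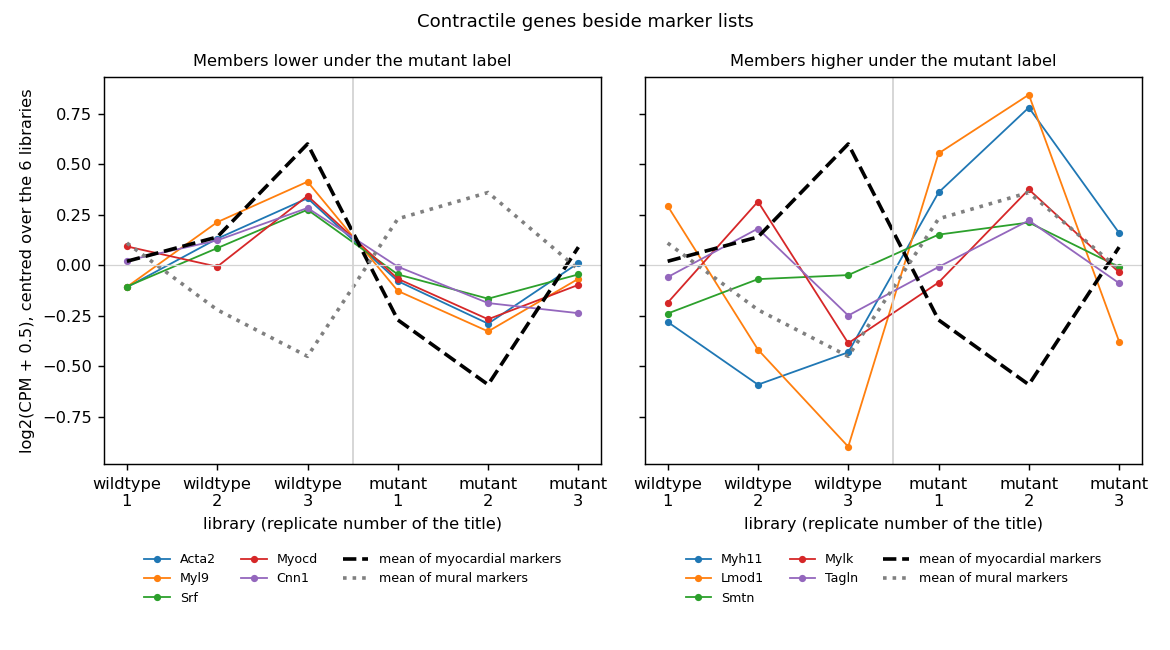
Centred log2(CPM + 0.5) of the 5 genes lower by sign (left) and the 5 higher by sign (right) in each library, beside the mean of the 14 myocardial markers (dashed) and the 10 mural markers (dotted). Wildtype replicate 3 and mutant replicate 2 are the extremes of both marker means, and *Lmod1* and *Acta2* run in opposite directions.

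The tested markers of gut and airway mesenchyme and of airway and oesophagus epithelium were near the limit of detection. The lists hold no marker of vessels outside the heart, and whether smooth muscle from outside the heart was included was not tested. *Foxf1* and *Barx1*, factors of gut and airway mesenchyme, had 0.133 to 0.427 CPM and 0.0225 to 0.675 CPM, and the third visceral marker, *Nkx2-3*, was not in the table. The 3 tested markers of airway and oesophagus epithelium summed to 0.318 to 0.915 CPM. Skeletal muscle markers summed to 96.7 to 247 CPM, of which *Ckm*, a creatine kinase that heart muscle also expresses, had 89.3 to 233 CPM. *Myod1*, the factor that sets skeletal muscle fate, had between 0 and 0.361 CPM, and all 5 markers tested were lower by sign (median −0.85, 0 called). Endothelial markers were lower by sign in 7 of 7 (median −0.088, 0 called), blood markers in 5 of 5 (median −0.55), epicardial markers in 4 of 5 (median −0.2), and neural crest and glia markers were higher in 4 of 4 (median 0.32).

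The wider contractile pathway was described with 6 lists of 81 genes in all. None of the 81 was called (0 genes), 17 had an unadjusted p under 0.05 and were higher (8.23% of all genes tested), and 13 were lower with such a p (7.83% of all genes). The median log2 fold change was 0.057. DESeq2's Wald test called 7 of them (2.66% of all genes), edgeR with the replicate block on the title numbers 18 (5.6%), and edgeR without wildtype replicate 1 called 17 (9.45%). Among 16 partners of the contractile filaments 9 were higher and 7 lower by sign (median 0.035), with 4 and 3 at an unadjusted p under 0.05. *Actg2*, the other smooth muscle actin, had 9.74, 8.43 and 3.57 CPM in the wildtype and 14.9, 19.6 and 10.8 CPM in the mutant libraries, which did not overlap. Its log2 fold change of 1.05 (standard error 0.32, edgeR adjusted p = 0.203) was close in size to that of *Myh11*, and it was called by DESeq2's Wald test (adjusted p = 0.0234) and with the replicate block (edgeR adjusted p = 0.000521). *Flna*, which cross-links actin, had a mean of 1295 CPM under the mutant and 869 CPM under the wildtype label (0.58, edgeR adjusted p = 0.223). *Nexn*, an actin-binding protein abundant in heart muscle, had 356 CPM against 478 CPM (−0.42, edgeR adjusted p = 0.208).

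Of 15 genes that set the phosphorylation of myosin, 3 were higher and 12 lower by sign (median −0.083), and 3 in each direction had an unadjusted p under 0.05. Over all genes tested, 8.23% were higher and 7.83% lower with such a p. The phosphatase subunit *Ppp1r12b* had means of 145 CPM under the mutant and 191 CPM under the wildtype label (log2 fold change −0.40, edgeR adjusted p = 0.195), and the catalytic subunit *Ppp1cb* 200 CPM and 239 CPM (−0.26, edgeR adjusted p = 0.26). *Arhgef1*, an activator of RhoA, had 104 CPM against 80.3 CPM (0.37, edgeR adjusted p = 0.205). Among 14 regulators of Srf and Myocd 10 were higher by sign (median 0.15). *Fhl2*, a cofactor found in heart muscle, had 127 CPM against 178 CPM (−0.49, edgeR adjusted p = 0.233), while the Srf cofactor *Mrtfb* had 50.4 CPM against 41.3 CPM (0.29, edgeR adjusted p = 0.264) and *Klf4*, which represses contractile genes, 18.7 CPM against 14.8 CPM (0.33, edgeR adjusted p = 0.267).

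Srf also acts on genes that every cell uses, and these were set beside the contractile targets. The 12 cytoskeletal targets had a median of 0.14, with 9 higher by sign and 3 of them at an unadjusted p under 0.05, *Tagln2* (0.31, edgeR adjusted p = 0.24), *Zyx* (0.33, edgeR adjusted p = 0.252) and the non-muscle myosin *Myh9* (0.25, edgeR adjusted p = 0.264). All 7 immediate early targets were higher by sign (median 0.41), 4 of them at an unadjusted p under 0.05. Over all genes tested, 8.23% were higher with such a p. *Egr3* had 2.18, 1.28 and 1.08 CPM in the wildtype and 3.17, 3.34 and 2.71 CPM in the mutant libraries, without overlap (1.01, standard error 0.28, edgeR adjusted p = 0.194). *Egr2* had 1.32 CPM and 2.59 CPM as the means of the wildtype and mutant libraries (0.97, edgeR adjusted p = 0.203), and *Fos* 2.55 CPM and 4.10 CPM (0.68, edgeR adjusted p = 0.194). Counts per library were low, 35 to 127 for *Egr3*, 39 to 120 for *Egr2* and 83 to 183 for *Fos*. With offsets for gene length and GC content the medians were −0.068 for the cytoskeletal, 0.19 for the immediate early targets and −0.046 for the regulators of Srf and Myocd. In that fit the median was −0.085 over all genes tested and −0.13 over those averaging 1 CPM or more.

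The 21 paralogs of the 10 genes were divided, 11 higher and 10 lower by sign (median 0.0039), with 3 and 6 at an unadjusted p under 0.05. Such a p was found for 8.23% of all genes tested among the higher and 7.83% among the lower. *Actg2*, *Cnn2*, *Tagln2* and *Myh9* also stand in the lists above, and the 3 higher paralogs with such a p were *Actg2*, *Tagln2* and *Myh9*. *Lmod2*, the heart muscle relative of *Lmod1*, had 109, 113 and 136 CPM in the wildtype and 77.7, 72.5 and 86.8 CPM in the mutant libraries. Its groups did not overlap, and its log2 fold change was −0.60 (standard error 0.12, edgeR adjusted p = 0.141). *Lmod2* was called by DESeq2's Wald test (adjusted p = 0.00118), which called 2.66% of all genes. It was also called with the replicate block on the title numbers (edgeR adjusted p = 0.00208), which called 5.6%. *Lmod1* and *Lmod2* thus had opposite signs, a difference between the genes that was not tested. *Myl2*, the ventricular relative of *Myl9*, had means of 3222 CPM under the mutant and 6232 CPM under the wildtype label (−0.95, standard error 0.25, edgeR adjusted p = 0.194).

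**Figure D5:**
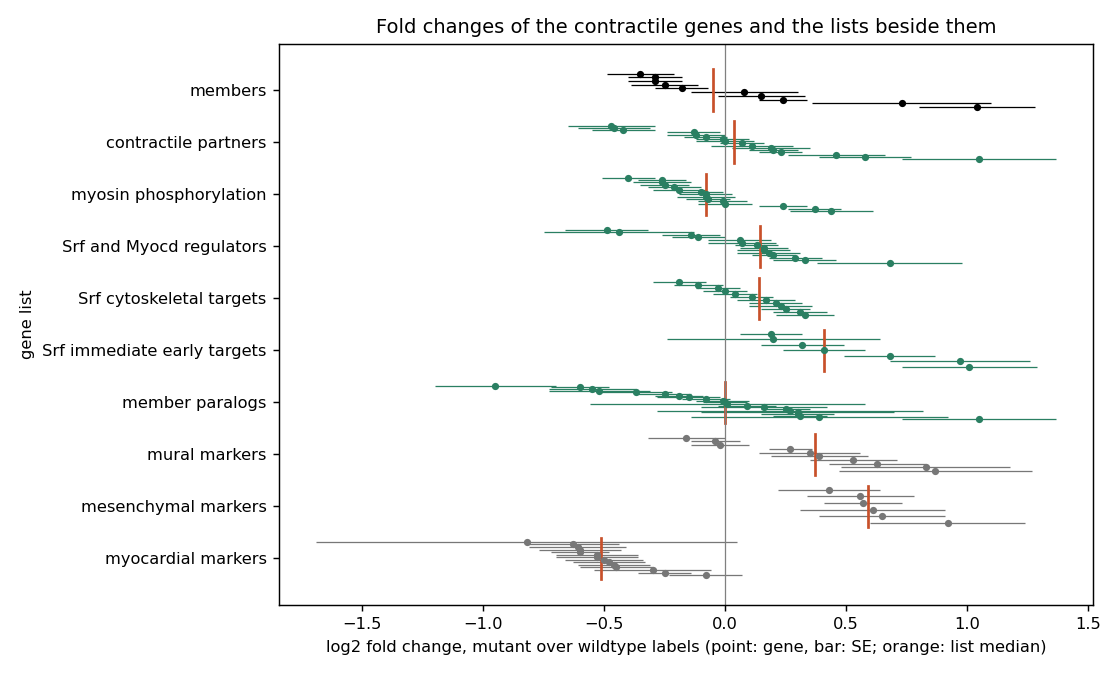
Log2 fold changes (mutant over wildtype label) of the 10 genes (black), the 6 pathway lists (green) and 3 marker lists (grey), with a point for each gene, its standard error as a bar and the median of each list as an orange line. The medians are −0.047 for the 10 genes, 0.41 for the immediate early targets, 0.37 for the mural and −0.51 for the myocardial markers.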

How the data were processed

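RNA of mouse OFTs at E13.5 was measured in 6 libraries, with 3 OFTs pooled in each. The authors made strand-marking libraries of total RNA after removal of ribosomal RNA and aligned paired-end reads to mm10 with TopHat2 2.1.0 (per the labels). Reads on exons were counted with GenomicAlignments. The values as deposited are counts per gene, in whole numbers that were not normalized. The authors used DESeq2 1.26.0, and its results were not used here. The annotation release and the strand setting of the counting are not given in the sources used here.

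The 28157 genes with more than 5 reads in total were kept, scaled by TMM and compared with edgeR 4.0.16 in R 4.3.3 (quasi-likelihood test, p-values adjusted by Benjamini-Hochberg). Standard errors were worked back from that test, as the size of the log2 fold change divided by the square root of the F statistic. Alternatives were DESeq2 1.42.0, limma-voom (limma 3.58.1), other scalings and filters, a replicate block, offsets for GC content and length, a myocardial covariate, a stricter threshold and each library left out in turn. Blocks on the other label field's numbers, and in DESeq2, were added after the data were seen. Single genes were compared by an exact permutation test of log2(CPM + 0.5). Positions and exon lengths came from GENCODE for mm10, which lacks 54 of the 28777 identifiers. Sampling noise does not account for the spread between replicates (chi-square per degree of freedom of 7.61 to 65.6), so all libraries were counted. P-values cover only the spread between pools.

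The titles number the replicates 1 to 3 in each group. Over 16655 genes, deviations from the group mean correlated within each title number (r = 0.101, 0.152 and 0.458). The block was therefore taken as a pairing, a choice that rests on these same data. Wildtype replicate 1 and mutant replicate 2, whose numbers differ, had r = 0.318, above 0.101 and 0.152. These correlations do not show that the title numbers mark a pairing. Neither the labels nor the methods say that a number marks a shared litter or day, and the other label field swaps wildtype replicates 2 and 3, which pairs libraries with r = −0.487.

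The 10 genes and all lists were chosen with earlier results of these data known. Of each list the text names up to 3 genes with the smallest unadjusted p, where a result of the 10 genes turns on them, the tested genes of lists of 3 or fewer, and the 5 others with the highest Pearson r with the mean profile of the 10 genes. *Myod1* and *Ckm* were named after their values were seen, and *Mcam* also falls outside this rule. The single-cell data were not analysed here. The code was tested on simulated counts.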

Additional observations from a re-analysis of the deposited data

How the results depend on the processing

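The count of all genes called was 6. It was 749 by DESeq2's Wald test, 1577 with the replicate block on the title numbers and 3065 with that block and offsets for gene length and GC content. It was 83 with the block on the other label field, 1345 with DESeq2 and the title block, and 2 at an adjusted p of at most 0.01. With each library left out in turn it ran from 1 to 2593, and wildtype replicate 1 gave the 2593. Of the 10 contractile genes 0 were called, against 1, 2 and 5 in the first 3 of these fits, 1 with DESeq2 and the title block and 0 to 2 with a library left out (2 without wildtype replicate 1). In the other fits 0 were called. Of the 81 pathway genes 0 were called, against 7, 18 and 24 in the first 3 fits, 16 with DESeq2 and the title block and 0 to 17 with a library left out. Of *Notch1* and *Nos3*, 1 was called, 2 by DESeq2, with either block, with the block and offsets and with DESeq2 and block, 0 with the offsets alone or the covariate, and 0 to 2 with a library left out. Without offsets, the block on the title numbers changed no other edgeR call of the 10 genes than those of *Myh11* and *Lmod1*. Added to the offsets, it changed those of *Myh11*, *Cnn1*, *Myocd*, *Srf* and *Myl9*. The median level of the 10 genes was 12.3 CPM per kilobase, and 15.7 with the longest transcript as the length. Scaling by library size alone moved the median of all genes from 0.011 to 0.11 on the log2 scale and turned no sign among the 10 genes. Low counts limit *Tagln*, *Myh11* and *Lmod1* most, with the lowest at 67, 63 and 76 counts in a library, and 3 libraries a group leave the calls dependent on the fit.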

Other observations

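The mean of the centred profiles of the 10 genes, which joins genes of opposite sign, was −0.066, −0.002 and −0.036 (log2) in wildtype replicates 1, 2 and 3, and 0.063, 0.12 and −0.08 in mutant replicates 1, 2 and 3. Among 11163 other genes averaging 10 CPM or more, the 5 with the most similar profile over the 6 libraries were Gm5846 and *Copz2* (Pearson r = 0.988 each), *Ccdc71* (r = 0.987), *Fam129b* (r = 0.982) and *Ptprf* (r = 0.981). These values describe 6 points that share libraries, and were picked as the highest of many. The log2 fold changes of the 5 genes lay between 0.05 and 0.18, and none was called (0 genes, edgeR adjusted p from 0.442 to 0.848).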
